A study of Mus musculus with 2 samples.

Results

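The muscle myosin heavy and light chains were read on 2 arrays of differentiated C2C12 cells. C2C12 is a line of mouse myoblasts, muscle precursors that stop dividing and fuse into contractile myotubes once serum is withdrawn. The set holds 10 listed genes of the 19938 genes named on the array. They were listed by gene name and not by a cut on their values, but with earlier results of these data known. The heavy chain genes are Myh1, Myh2, Myh3, Myh4, Myh7 and Myh8, and the light chain genes are Myl1, Myl2, Myl3 and Myl4. Each has 1 probe set that names a single gene, and all 10 lay above the detection floor on both arrays. The cells were grown with 10% fetal bovine serum, held in 2% horse serum for 7 days after confluence, and then exposed to virus (multiplicity of infection 30) over 48 h. One culture received Ad-caERα, an adenovirus with a constitutively active estrogen receptor α, and the other received Ad-DsRed, an adenovirus with the red fluorescent protein DsRed. Both cultures thus carried an adenoviral vector, and no uninfected culture was among the samples. The sources used here do not give the promoter that drives either insert or the species of the receptor. There is 1 array per vector, so no difference below has a replicate check or a test, and each difference is a log2 value, positive where Ad-caERα was higher than Ad-DsRed.

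Muscle myosin is a motor of the thick filament, built from a pair of heavy chains that each carry an essential and a regulatory light chain. The heavy chain sets the shortening speed of a fibre, and muscle replaces embryonic (Myh3) and perinatal (Myh8) heavy chains by adult fast (Myh2 for type IIa, Myh1 for IIx, Myh4 for IIb) or slow (Myh7) ones as it matures. Among the light chains, Myl1 encodes the fast essential chain, Myl4 the embryonic and atrial essential chain, Myl3 the slow and ventricular essential chain, and Myl2 the slow and ventricular regulatory chain. In adult mouse muscle innervation and use can shift fibres in either direction along the series between slow and fast.

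The heavy chain genes other than Myh7 stand next to each other on chromosome 11, and Myh7 lies beside the cardiac gene Myh6 on chromosome 14. The 250 bases before the annotated start of the 6 heavy chain genes are shown because the fast and perinatal genes of the cluster share letters here that Myh3 and Myh7 lack, and because Myh4 and Myh7 were the members that differed most between the arrays. They are from RefSeq on GRCm38.p6, written 5′ to 3′ on the gene's strand, with the start site just after the last base. Capitals mark a match to the MEF2 consensus (TTATTTATAG), the stretch TTCTAATTATATCC and the letters TATAAA, which are found in that order in Myh1. Myh7 has 2 listed starts, and the one further into the gene is shown.
Myh3 (chr11:67078050-67078299, plus strand): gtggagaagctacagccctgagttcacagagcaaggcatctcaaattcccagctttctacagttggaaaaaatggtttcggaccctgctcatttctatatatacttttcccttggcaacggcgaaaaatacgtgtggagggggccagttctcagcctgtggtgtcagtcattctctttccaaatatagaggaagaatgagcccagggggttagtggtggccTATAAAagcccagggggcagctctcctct
Myh2 (chr11:67170777-67171026, plus strand): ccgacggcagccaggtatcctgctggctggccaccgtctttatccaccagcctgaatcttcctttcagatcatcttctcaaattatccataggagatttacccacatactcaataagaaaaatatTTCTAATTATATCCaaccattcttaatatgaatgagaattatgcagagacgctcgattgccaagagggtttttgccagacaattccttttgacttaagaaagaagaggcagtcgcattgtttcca
Myh1 (chr11:67199852-67200101, plus strand): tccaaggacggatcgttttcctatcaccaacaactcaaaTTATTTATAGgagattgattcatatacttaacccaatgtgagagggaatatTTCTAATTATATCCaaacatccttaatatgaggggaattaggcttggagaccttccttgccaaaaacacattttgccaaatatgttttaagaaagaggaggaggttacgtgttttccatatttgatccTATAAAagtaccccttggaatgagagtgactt
Myh4 (chr11:67237562-67237811, plus strand): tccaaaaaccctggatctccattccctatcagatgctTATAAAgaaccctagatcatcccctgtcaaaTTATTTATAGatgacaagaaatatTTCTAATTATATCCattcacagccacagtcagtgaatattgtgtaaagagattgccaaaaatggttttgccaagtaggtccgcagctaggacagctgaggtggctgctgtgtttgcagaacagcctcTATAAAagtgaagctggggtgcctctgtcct
Myh8 (chr11:67276874-67277123, plus strand): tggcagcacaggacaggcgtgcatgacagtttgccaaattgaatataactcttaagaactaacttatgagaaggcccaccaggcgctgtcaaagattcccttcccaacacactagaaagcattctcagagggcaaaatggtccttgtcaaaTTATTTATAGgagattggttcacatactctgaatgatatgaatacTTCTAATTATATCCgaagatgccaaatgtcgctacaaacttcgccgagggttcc
Myh7 (chr14:54994550-54994799, minus strand): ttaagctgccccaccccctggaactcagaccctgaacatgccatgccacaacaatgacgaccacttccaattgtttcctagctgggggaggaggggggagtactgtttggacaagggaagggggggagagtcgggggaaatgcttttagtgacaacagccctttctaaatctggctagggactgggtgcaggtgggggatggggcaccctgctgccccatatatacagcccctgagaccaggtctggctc

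The stretch TTCTAATTATATCC, 14 bases long, was the longest run common to the windows of Myh1, Myh2, Myh4 and Myh8, and of 32851 RefSeq windows of the same length these 4 alone held it on either strand. It was looked for after the windows had been read. That these 4 hold it follows from how it was chosen, so the count is no test. The MEF2 consensus, which is bound by the MEF2 factors of muscle genes, matched in Myh1, Myh4 and Myh8 with the same 10 letters, and in 2.92% of all windows. The letters TATAAA, searched on the gene's strand only, ended 24 bases before the start in Myh3, 26 in Myh4 and 27 in Myh1, and occurred in 7.59% of all windows. Myh4 held a further copy 213 bases before its start. Other motifs were searched on both strands in the 12 windows listed for the 10 genes. The E-box CANNTG, bound by MyoD and myogenin, was found in 7 of the 10 genes and in 66.2% of all windows. The letters CATTCC, a TEAD site, were found in 5 genes and in 12.6% of windows. The CArG box, bound by serum response factor, was found in Myh4 and Myl3 and in 1.47% of windows. The full estrogen response element GGTCANNNTGACC was in 0 of the 12 windows and in 0.0639% of all windows. Its half-site AGGTCA was in 1 member, Myl2, 141 to 136 bases before the second listed start, against 14.0% of windows. The AP-1 site TGANTCA was found in Myh1 alone among the members and in 6.75% of windows. A match describes letters only, and these windows are short.

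Across the 10 genes the arrays differed little. Of the 10 members 0 were 2-fold higher and 0 were 2-fold lower with the active receptor, where 0.686% of the 13554 measured genes passed that rule in either direction (0.590% higher and 0.0959% lower). At 1.5-fold the members again gave 0, against 2.71% of measured genes (1.82% higher and 0.885% lower). The difference was below 0 in 7 members and above 0 in 3, against 48.8% and 50.2% of measured genes. The median was -0.046 over the members and 0.0017 over all measured genes. The members spread from -0.48 to 0.50, with an SD over genes of 0.26, and the SD over all measured genes was 0.27. With 1 array per group the only gauges of spread come from within the arrays. The SD of the difference was 0.13 where 1 gene has several probe sets (770 genes), 0.11 over 53 ribosomal protein genes and 0.22 over 1210 olfactory and vomeronasal receptor probe sets taken as silent. None of these includes the spread between cultures.

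**Figure D1:**
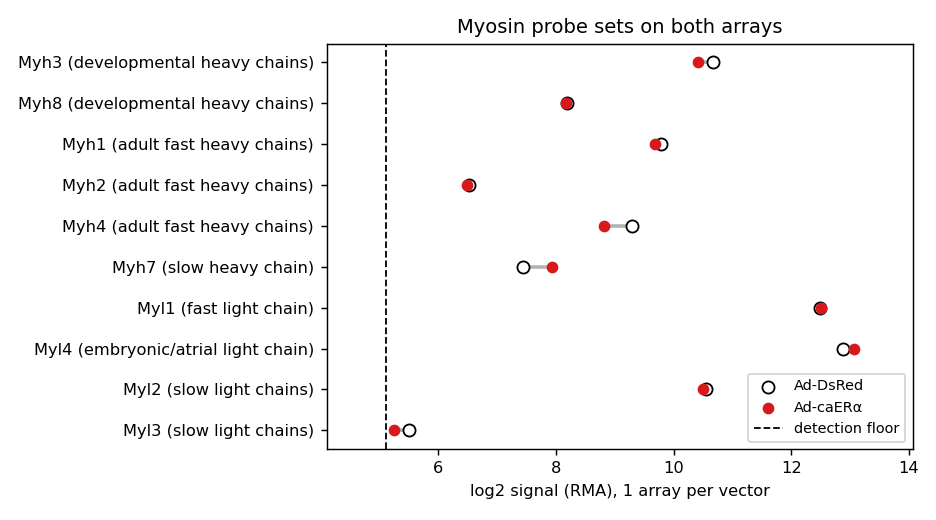
Log2 signal (x axis) of each of the 10 myosin probe sets on the Ad-DsRed array (open circles) and the Ad-caERα array (red), with 1 array per vector. The dashed line is the detection floor at 5.11. The symbols nearly overlap for Myh8, Myh2 and Myl1 and stand furthest apart for Myh4 and Myh7.

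Myh7, the slow and cardiac β heavy chain, was the highest member. Its log2 signal was 7.44 in Ad-DsRed and 7.93 in Ad-caERα, a difference of 0.50 or 1.41-fold. Among measured genes 4.19% (568 genes) differed at least as far in either direction, and Myh7 stood at the 97.4th percentile of the signed difference. Of the 6 listed heavy chains it alone was above 0 on the values as deposited. Myh6, the α cardiac heavy chain and its neighbour, was near the floor at 5.79 and 5.86, a difference of 0.073.

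The adult fast heavy chains were unequal among themselves. Myh4, the type IIb chain of the fastest fibres, was the lowest member, with 9.29 (Ad-DsRed) and 8.81 (Ad-caERα). That is a difference of -0.48, or 1.39-fold lower, and 4.78% of measured genes (648) differed at least as far. Myh1, the IIx chain, had 9.79 and 9.68, a difference of -0.11. Myh2, the IIa chain, had 6.52 and 6.49, a difference of -0.032. The differences of Myh1 and Myh2 were smaller than the SD of 0.13 seen where 1 gene has several probe sets. The mean over these 3 genes was -0.21, and most of it came from Myh4.

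The developmental heavy chains split in the same way. Myh3, the embryonic chain, had a signal of 10.67 in Ad-DsRed and 10.42 in Ad-caERα, a difference of -0.25 (1.19-fold lower), and 24.1% of measured genes differed at least as far. Myh8, the perinatal chain, was alike on both arrays at 8.20 and 8.18, a difference of -0.014. Their mean was -0.13. In each class a single gene thus carried most of the mean. Without replicates such a split cannot be told apart from the spread between arrays or cultures.

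The light chains differed less between the arrays than Myh7 and Myh4 did. Myl4, the embryonic and atrial chain, had the brightest probe set of the 10, at 12.88 (Ad-DsRed) and 13.06 (Ad-caERα), a difference of 0.18 (1.13-fold). Myl1, the fast essential chain, was at 12.49 and 12.50, a difference of 0.0099. Myl2, the slow regulatory chain, was at 10.56 and 10.50, a difference of -0.060. Both slow light chains were thus below 0 while the slow heavy chain Myh7 was above it. The difference of Myl2 was smaller than the SD of 0.13 seen where 1 gene has several probe sets. Myl3, the slow essential chain, was the dimmest member at 5.51 and 5.24, only 0.40 and 0.14 above the floor, with a difference of -0.27 (1.20-fold lower). RMA compresses differences between signals this weak, and Myl3 is not measured with a higher floor.

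**Figure D2:**
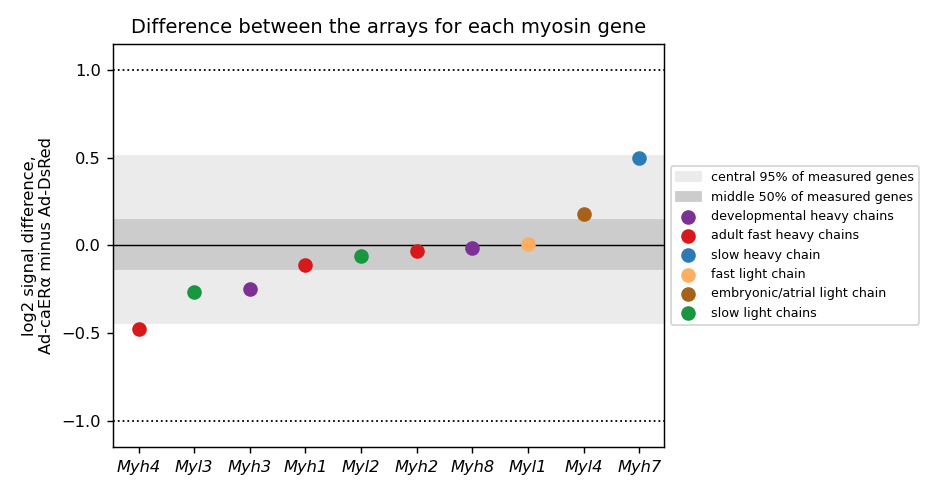
Log2 signal difference, Ad-caERα minus Ad-DsRed (y axis), for the 10 myosin genes in order of the difference, coloured by class. The dark band holds the middle 50% and the light band the central 95% of the 13554 measured genes, and dotted lines mark 2-fold. Myh4 at -0.48 lies just outside the light band, Myh7 at 0.50 just inside it, and the rest lie within it.

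The direction of 3 members depends on the scaling. Myl1 ran from -0.033 to 0.039, Myh8 from -0.033 to 0.015 and Myh2 from -0.032 to 0.00072. These ranges cover the 3 other normalizations and the values as deposited, so these genes have no settled direction even within these arrays. For the other members the sign held, but rescaling the same arrays cannot settle a direction with 1 array per vector. Under the same settings Myh7 stayed between 0.48 and 0.53 and Myl4 between 0.15 and 0.21. Myh4 stayed between -0.51 and -0.45, Myh3 between -0.28 and -0.22, and Myh1 between -0.13 and -0.081. Myl2 stayed between -0.092 and -0.031. Myl3 stayed between -0.27 and -0.19.

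By brightness of the probe sets the order was Myl4, Myl1, Myh3, Myl2, Myh1, Myh4, Myh8, Myh7, Myh2 and Myl3 in Ad-DsRed. In Ad-caERα it was the same except that Myl2 and Myh3 exchanged places. Myl4 was brighter than 99.4% of all 35556 probe sets in Ad-DsRed, Myh3 than 93.5%, Myh7 than 64.5%, Myh2 than 55.2% and Myl3 than 43.0%. In Ad-caERα the rank of Myh7 moved to 69.1% and that of Myh4 from 83.4% to 78.2%. The probes of each set bind with their own affinity, so this order is one of signals and not of mRNA amounts. The heavy chain genes of the cluster are also close in sequence, and how far a probe set reads its neighbours' transcripts was not tested.

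Because the affinity of a probe set is the same on both arrays, the shift of the ratio between a pair of genes can be compared. The largest of the 45 shifts was Myh7 over Myh4, which moved by 0.97 on the log2 scale, or 1.96-fold, and was chosen as the largest. Shifts of 1.5-fold or more were found in 5 pairs, each of which held Myh7 or Myh4: Myh7 over Myh4, Myl3, Myh3 and Myh1, and Myl4 over Myh4. These are 11.1% of the members' pairs, where 8.16% of all pairs of measured genes shifted that far, so the share is near the background. Myh7 and Myh4 are the extremes of the set, which largely fixes their place in these pairs. In 0 pairs did the shift reach 2-fold, against 1.67% of all pairs. Against the mean of the 3 adult fast heavy chains Myh7 shifted by 0.70 (1.63-fold), and against the mean of the developmental pair by 0.63 (1.55-fold). Myl4 shifted against Myl1 by 0.17 (1.12-fold). The pairs share genes, and without replicates a shift cannot be told apart from the spread between arrays or cultures.

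In gene order along chromosome 11, the differences of the cluster genes were unequal. Myh3 (-0.25), Myh2 (-0.032), Myh1 (-0.11), Myh4 (-0.48) and Myh8 (-0.014) follow one another, so the lowest member stood between Myh1 and the nearly equal Myh8. Myh13, the extraocular heavy chain at the end of the row, was below the floor on both arrays at 4.52 and 4.72. The genes before the cluster, Adprm (0.22) and Sco1 (0.20), were above 0, and Gas7 after it was at -0.086. On chromosome 14 Myh7 (0.50) stood between Myh6 (0.073) and Ngdn (0.10), and Zfhx2 after Ngdn was at -0.27. Il25 and Cmtm5, before Myh6, were at 5.27 and 5.46 in Ad-DsRed and below the floor in Ad-caERα.

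**Figure D3:**
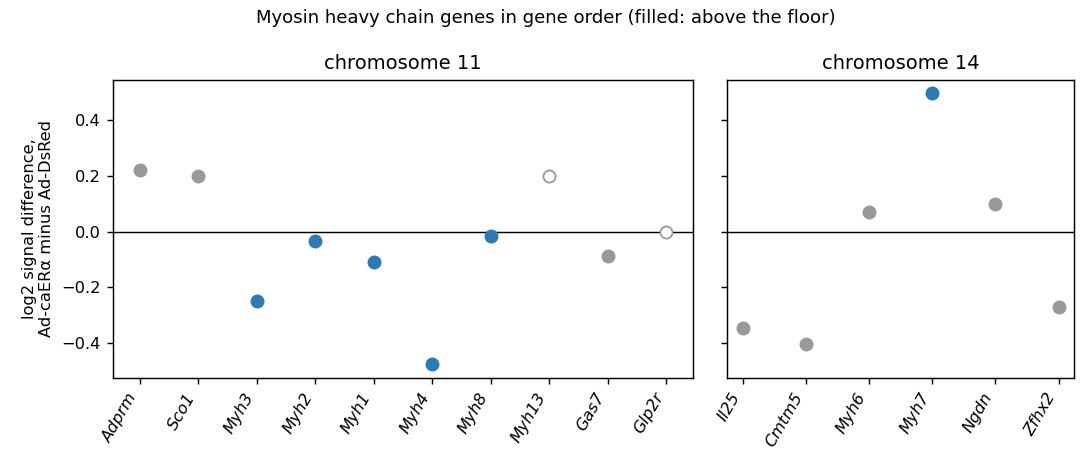
Log2 signal difference, Ad-caERα minus Ad-DsRed (y axis), of the heavy chain genes (blue) and their protein-coding neighbours (grey) in gene order on chromosomes 11 and 14, at even spacing and not to scale. Filled circles are genes above the detection floor on at least 1 array. Myh4 is the lowest of the cluster and Myh7 is above both of its neighbours.

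Other myosin genes were measured beside the listed ones. Of 6 other sarcomeric myosins 4 were measured, 2 above and 2 below 0, with a median of -0.0022 that changes sign with the scaling. Mylpf, the fast regulatory light chain, was at 11.20 and 11.12, a difference of -0.077. Myl6b, an essential light chain of slow and embryonic muscle, was at 9.24 and 8.88, a difference of -0.35. Myh7b, a slow-tonic heavy chain relative, had a difference of 0.082, and the atrial light chain gene Myl7 was below the floor.

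Among 8 smooth and non-muscle myosins, 4 were above and 4 below 0, with a median of -0.027 that also changes sign with the scaling. Myh14, the heavy chain of non-muscle myosin IIC, had the largest difference of any myosin in the lists, with 6.56 (Ad-DsRed) and 7.53 (Ad-caERα). That is 0.97 on the log2 scale, or 1.96-fold, just short of the 2-fold rule. Next were Myl9 (0.21), a smooth muscle regulatory light chain, and Myl6 (0.038), the essential light chain of non-muscle and smooth muscle myosin. The lowest were Myh10 (-0.24) of non-muscle myosin IIB, Myh11 (-0.12) of smooth muscle, and Myh9 (-0.091) of non-muscle myosin IIA. So the non-muscle heavy chains went both ways.

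Genes that fold, turn over or phosphorylate myosin were mostly slightly lower. Of 12 listed genes 10 were measured, 8 below and 2 above 0, where 48.8% of all measured genes were below it. The list had a median of -0.15 and a mean of -0.084. Trim55, a ubiquitin ligase of the MuRF family at the M-band and microtubules, was the lowest at -0.42, followed by the myosin light chain kinases Mylk (-0.22) and Mylk2 (-0.19). Unc45b, the muscle chaperone of the myosin head, was at 8.11 and 7.92, a difference of -0.19. Its general counterpart Unc45a had the highest difference at 0.35, then Smyd1, a methyltransferase of sarcomere assembly, at 0.27, and Ppp1r12b, a subunit of myosin phosphatase, at -0.022. In this list 0 genes passed the 1.5-fold rule, against 2.71% of all measured genes.

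The thick filament partners had a median of -0.073 over 9 measured genes (-0.044 after median centring). Of these 6 were below 0, against 48.8% of all measured genes. Mybpc2, the fast myosin-binding protein C, was 1.57-fold higher at 7.37 (Ad-DsRed) and 8.02 (Ad-caERα), and Myom3 (0.10) and Obsl1 (0.035) followed. Ttn, the titin spring along the thick filament, was at 11.72 and 11.30, a difference of -0.42. Mybpc3, the cardiac myosin-binding protein C, was at 5.22 in Ad-DsRed and below the floor in Ad-caERα, so only a bound of at least 1.08-fold lower can be given. Mybph, another myosin-binding protein, was at -0.25. The fast isoform Mybpc2 was thus above 0 while Myh4 and Myh1 were below it.

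Most fast partners and most slow partners alike were below 0, where 48.8% of all measured genes were. The 3 adult fast heavy chains were also below 0 on the values as deposited, and Myh7 was above it. Of 7 fast fibre genes 6 were measured, 5 of them below 0, with a median of -0.24, or -0.16 over all 7 without a floor. Casq1, the fast calsequestrin, was lowest at -0.61 (1.53-fold lower), then the calcium pump gene Atp2a1 (-0.52) and the troponin gene Tnnc2 (-0.32). At the top were Tnni2 (0.0077), Tnnt3 (-0.089) and Actn3 (-0.16). Of 7 slow fibre genes 5 were below 0 and 2 above, with a median of -0.11 but a mean of -0.014, since Mb was far above the rest. Mb, myoglobin, was the highest at 10.91 (Ad-DsRed) and 11.78 (Ad-caERα) (0.87, 1.82-fold), followed by the slow troponin gene Tnni1 (0.27). The slow genes Casq2 (-0.45), Myoz2 (-0.39) and Tnnt1 (-0.17) were the lowest, while Atp2a2 was at -0.092. Thus Myh7, Mb and Tnni1 were above 0, and the slow light chains and the other 5 slow partners were below it.

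**Figure D4:**
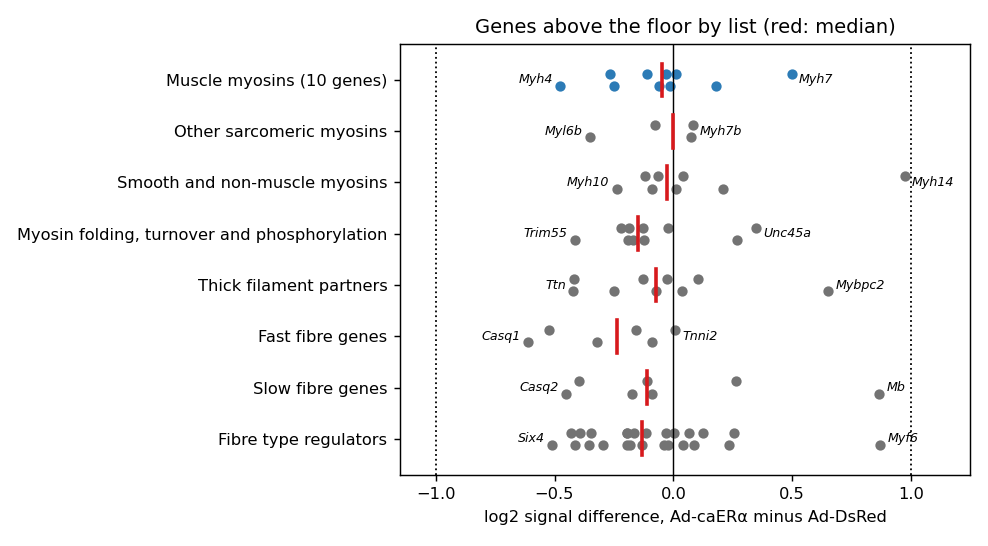
Log2 signal difference, Ad-caERα minus Ad-DsRed (x axis), of the 10 muscle myosins (blue) and of the related lists (grey), 1 point per gene above the floor, with the median of each list in red and 2-fold marked by dotted lines. The highest and lowest gene of each list are named, and Myh14 at 0.97 is the nearest to 2-fold.

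Of 25 measured regulators of fibre type, 17 were below and 8 above 0, where 48.8% of all measured genes were below it. The median of this list was -0.13, or -0.040 with either higher floor. The SD of 0.13 found for genes with several probe sets is of the same size. It gauges single differences, so it gives no error for this median. Myf6, a myogenic transcription factor of mature fibres, was the highest at 5.48 (Ad-DsRed) and 6.35 (Ad-caERα) (0.87, 1.83-fold). Its Ad-DsRed value was only 0.37 above the floor and lay below both higher floors, so the size of this fold is uncertain. Thra, a thyroid hormone receptor, was at 0.26 and Mef2a at 0.23. The lowest was Six4, a homeobox factor of the fast programme, at 9.80 and 9.29 (-0.51). Ppargc1a, a coactivator of the slow oxidative programme, was at 5.86 and 5.43 (-0.43), above the floor used here but below both higher floors. Tbx15, a factor of fast fibres, was at -0.41.

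The labelled cell type was checked against its markers. All 8 skeletal myotube markers were above the floor, where 13554 of the 19938 named genes were measured, receptors left out. Their summed linear signal was 31797 in Ad-DsRed and 31520 in Ad-caERα, and their median difference was -0.069. Below 0 were 6 of them, against 48.8% of all measured genes, and 2 were above it, Des (0.22) and Myod1 (0.0036). Probe sets differ in affinity, so the sums here and below do not compare one cell type with another. Of 7 cardiomyocyte markers, listed because Myh7, Myl2, Myl3 and Myl4 are also heart genes, 4 were measured and Tbx5, Ryr2 and Myl7 were below the floor. The 4 measured ones had a summed linear signal of 732.2 and 1009, and Gata4 was the member that differed most, at 8.82 and 9.49. Of 5 undifferentiated myoblast markers all were measured, with sums of 7544 and 6900. Of these 4 were below 0, against 48.8% of all measured genes, among them Mki67 (-0.44), while Myf5 was at 0.71. The cell division genes Mki67 (10.97 in Ad-DsRed and 10.54 in Ad-caERα), Cdk1 (11.18 and 11.03) and Ccnd1 (11.15 and 10.93) were bright on both arrays. How many cells were still dividing was not tested. The 5 smooth muscle markers had sums of 10313 and 10334, and the 4 fibroblast markers sums of 9376 and 9723. Most of each sum came from a single bright gene, Acta2 (13.06 in Ad-DsRed) and Dcn (13.11 in Ad-DsRed). Of the smooth muscle markers 2 were above 0, Tagln the furthest at 0.59, and 3 were below it. The part of these markers in the myosin differences was not tested. In bulk RNA, fewer cells that express a gene and less of its RNA per cell cannot be told apart.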

How the data were processed

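Each sample's deposited column holds a log2 signal for every probe set, made by the authors with Affymetrix Expression Console and RMA (background correction, quantile normalization and probe summary), per the submitters' processing notes. The sources used here give no versions or filters. RMA compresses weak differences, and quantile normalization hides a change in total mRNA. Of 35556 probe sets, GEO's platform annotation names 1 gene for 21789 and several for 1621, and 12146 are unnamed here. All 10 member symbols matched RefSeq (GRCm38.p6) by gene identifier. Of several probe sets of a gene, the brightest on average was used. The detection floor, 5.11, is the 95th percentile of the higher value over 1210 olfactory and vomeronasal receptor probe sets. Genes whose higher value passed it were called measured, 13554 without the receptors. The precision of a value is limited by the number of arrays. With 1 array per group no p-value could be given, and a fold rule stands in for a test.

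The members and lists were chosen with earlier results of these data known. The text names all members and, in each related list, up to 3 genes at the top and 3 at the bottom of the measured differences. A few more (Myh6, Mylpf, Unc45b, Atp2a2, Myh7b, the marker genes and the genes beside the loci) were named after their values were seen. Alternatives were median centring, loess correction, a further quantile normalization, averaging of probe sets, other floors, other fold thresholds and means for medians. The code was tested on simulated data. Python 3.11.15, numpy 2.4.6, pandas 2.3.3, statsmodels 0.14.6 and matplotlib 3.10.9 were used.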

Additional observations from a re-analysis of the deposited data

How the results depend on the processing

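No paired analysis was possible because there is a single array per vector, so leaving out a replicate was not possible either. The 200 recalculated values all moved by less than 0.13, the SD between probe sets of the same gene, which is a gauge within the arrays and not a replicate error, and which is as large as several of the list medians. The counts of members past 2-fold stayed at 0 in both directions under every setting run, the 1.5-fold and 3-fold rules included. The members' median lay between -0.063 and -0.017. Among the differences of single members 4 changed sign, all in Myl1, Myh8 and Myh2. Averaging probe sets could not move a member, since each has 1. The higher floors, at 6.16 (99th percentile) and 6.04 (median of all probe sets), left 9 members without Myl3 and nearly coincide. The shift of Myh7 against Myh4 lay between 0.97 and 0.99 and that against the adult fast heavy chains stayed at 0.70. Both measures were chosen after the data were seen, and rescaling a whole array can hardly move a ratio within it.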

Other observations

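The microRNA genes Mir208a and Mir499, tied to muscle myosins, gave little signal on these arrays. Mir208b, also looked for among the microRNA genes of the myosin loci, had no single-gene probe set under that name. Mir208a, which lies within Myh6, had a log2 signal of 3.59 in Ad-DsRed and 3.67 in Ad-caERα, and Mir499, which lies within Myh7b, had 3.75 and 3.92, all below the floor of 5.11. Mir206, a skeletal muscle microRNA gene apart from the myosin loci, was above it at 6.27 and 6.17. Whether these probe sets read the mature microRNAs was not tested. The genes were named after their values were seen.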
